A study of Mus musculus with 38 samples.

Results

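The Nodal and activin genes described here are *Nodal*, *Gdf3*, *Tdgf1*, *Lefty1*, *Lefty2*, *Inhba* and *Inhbb*, 7 genes chosen by name of 35976 listed in the bulk time-course table, 37108 in the bulk factor-set table and 20695 in the single-cell table. All 7 were found in each table. They were measured while mouse embryonic fibroblasts (MEFs) were driven out of the fibroblast state by retrovirally delivered transcription factors, and the comparisons ask how BMP4, a bone morphogenetic protein, and the form of SALL4 bear on the pathway. The series holds 38 samples, of which 23 are bulk RNA-seq, 2 single-cell RNA-seq, 9 ATAC-seq and 4 CUT&Tag. Every group has 1 sample, so differences on a single day or between factor sets are given without a test. BMP4 and the form of SALL4 were also tested over the 4 days of their time courses, with the day as a block. The days share a course and are not replicates of 1 condition. These p-values set the mean difference over the days against its spread from day to day, moderated over all genes. That spread includes the noise of single libraries, and spread between repeated experiments is not measured.

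The MEFs came from embryos of embryonic day 13.5, and per the study's methods they carried an *Oct4*-GFP reporter allele (OG2). JGES cells received Jdp2, Glis1, Esrrb and Sall4, JGE cells the same without Sall4, JGEO cells JGE plus Oct4, and JGESO cells JGES plus Oct4. After 2 days with virus they were kept in a medium called iCD3 that holds mLIF, bFGF, vitamin C, CHIR99021 and inhibitors of chromatin enzymes, either without BMP4 (BMP4-) or with BMP4 at 10 ng/ml (BMP4+), and JGES cells were collected at days 0, 1, 3, 5 and 7. The day 0 library follows the virus, so it is not untreated MEF. The delivered *Jdp2*, *Esrrb* and *Sall4* were at 128 FPKM or more in all 9 JGES libraries, whereas the *Glis1* row did not exceed 1.13 FPKM there. Other MEFs received only SALL4-WT or SALL4-delN12, a form without the N-terminal stretch through which SALL4 recruits the NuRD chromatin complex, and were collected at days 1, 5, 9 and 11. *Sall4* was at 290 to 971 FPKM in those 8 libraries. They are listed as made without BMP4, whereas for the ATAC-seq and CUT&Tag samples BMP4 is not stated. All wells were mixed populations, and in bulk samples fewer cells of a type and less RNA per cell cannot be told apart.

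Nodal and the activins are secreted ligands of the TGF-beta superfamily that act through ACVR2-type and ACVR1B or ACVR1C receptors on SMAD2 and SMAD3. Nodal and GDF3 need an EGF-CFC co-receptor, Cripto (encoded by *Tdgf1*), whereas activins, which are dimers of the beta subunits encoded by *Inhba* and *Inhbb*, do not. The Lefty proteins block Nodal signalling and are themselves induced by it, and follistatins (*Fst*, *Fstl3*) bind activins. *Nodal*, *Gdf3*, *Tdgf1* and the *Lefty* genes are well known in the epiblast and in pluripotent stem cells, and *Inhba* and *Inhbb* in fibroblasts and other somatic cells.

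The promoters of the activin subunit genes were open in every ATAC-seq list, that of *Nodal* in few, so these are shown here for reference beside the results. *Nodal* lies at chr10:61417972-61425338, *Gdf3* at chr6:122605403-122610087, *Tdgf1* at chr9:110939603-110946158, *Lefty1* at chr1:180935022-180938400, *Lefty2* at chr1:180893108-180899103, *Inhba* at chr13:16011851-16031621 and *Inhbb* at chr1:119415465-119422248 (mm10, GENCODE M21), with *Gdf3*, *Tdgf1* and *Inhbb* on the minus strand. The 250 bases before the start are from RefSeq (GRCm38.p6), written on the gene's strand with each CG dinucleotide in capitals, for *Inhba* at chr13:16011601-16011850, *Inhbb* at chr1:119422249-119422498 and *Nodal* at chr10:61417722-61417971.
Inhba promoter: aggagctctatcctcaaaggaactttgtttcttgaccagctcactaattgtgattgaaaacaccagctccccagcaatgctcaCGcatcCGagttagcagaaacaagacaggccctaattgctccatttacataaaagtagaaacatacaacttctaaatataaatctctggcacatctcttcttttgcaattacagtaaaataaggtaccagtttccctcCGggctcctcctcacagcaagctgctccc
Inhbb promoter: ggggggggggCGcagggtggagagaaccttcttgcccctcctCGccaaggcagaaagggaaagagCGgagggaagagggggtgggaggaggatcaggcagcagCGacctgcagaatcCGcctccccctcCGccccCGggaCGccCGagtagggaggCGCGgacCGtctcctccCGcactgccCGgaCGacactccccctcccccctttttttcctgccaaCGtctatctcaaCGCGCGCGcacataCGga
Nodal promoter: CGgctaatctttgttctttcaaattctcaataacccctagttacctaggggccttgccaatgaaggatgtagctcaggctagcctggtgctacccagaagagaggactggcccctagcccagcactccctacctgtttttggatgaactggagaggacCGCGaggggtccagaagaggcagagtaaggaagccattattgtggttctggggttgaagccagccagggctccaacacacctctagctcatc
The *Inhbb* window held 21 CG dinucleotides and was 68.0% G and C, against 3 and 43.2% for *Inhba* and 3 and 53.2% for *Nodal*. Over 32851 promoter windows of this length the medians were 6 and 52.4%. Neither CAGAC, a SMAD-binding word, nor AATCCACA, a FOXH1-binding word, was found on either strand of these 3 windows. CAGAC occurs in 42.2% and AATCCACA in 0.718% of all the windows.

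*Nodal*, the ligand, was the first of the 5 Nodal-type genes (*Nodal*, *Gdf3*, *Tdgf1*, *Lefty1* and *Lefty2*) to appear in JGES cells. It was listed at 0 FPKM on day 0, and without BMP4 it stood at 5.43 on day 1, 11.1 on day 3, 6.62 on day 5 and 4.91 on day 7. With BMP4 it stood at 1.00, 0.341, 0.167 and 1.51 on the same days. The BMP4+ library was the lower of the pair on every day, with differences (BMP4+ minus BMP4-) of -1.68, -3.17, -2.71 and -1.24 on the log2(FPKM + 1) scale, on which all bulk differences are given and which understates the change of low genes. A difference of at least 1 in size is called past the fold. On day 1 *Nodal* and *Inhbb* were the only members past the fold, both lower with BMP4, of 3 members that reached 1 FPKM in either library, whereas of 13582 genes at that level 3.75% were higher and 5.72% lower with BMP4.

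*Gdf3*, a related ligand, appeared later. Without BMP4 it was listed at 0 on days 0 and 1 and stood at 2.90, 5.56 and 10.1 FPKM on days 3, 5 and 7. With BMP4 it never exceeded 0.295 FPKM. The differences were -1.97, -2.71 and -3.10 on days 3, 5 and 7.

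*Tdgf1*, the co-receptor gene, reached the highest level of the 7 in JGES cells, FPKM being a level per length. Without BMP4 it was listed at 0 on days 0 and 1 and then stood at 5.47, 29.9 and 60.1 FPKM. With BMP4 it was listed at 0 through day 3 and stood at 0.335 on day 5 and 2.69 on day 7. The difference grew in size from -2.69 on day 3 to -4.53 on day 5 and was -4.05 on day 7.

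The feedback antagonists peaked on day 5. Without BMP4, *Lefty1* was listed at 0 on days 0 and 1 and stood at 1.94, 19.2 and 5.46 FPKM on days 3, 5 and 7, and *Lefty2* stood at 2.93, 20.7 and 12.2. With BMP4, *Lefty1* was listed at 0 until day 7, when it stood at 0.437, and *Lefty2* reached no more than 1.27. On day 5 the differences were -4.34 for *Lefty1* and -4.25 for *Lefty2*. The 2 transcripts share sequence: 17.9% of the 50-base stretches of *Lefty1* also occur in *Lefty2*, so a part of their reads could be assigned to either. *Tdgf1* likewise shares 8.86% of its 50-base stretches with the pseudogene *Tdgf1-ps1*.

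The activin subunit genes were lower on day 7 than on day 0 without BMP4. *Inhba* stood at 8.13 FPKM on day 0 and then at 1.09, 0.0484, 0 and 0.160 on days 1, 3, 5 and 7 without BMP4, and with BMP4 it stood at 1.47, 0.350, 0.636 and 1.28. It was above its BMP4- partner by 0.24 on day 1 and 0.97 on day 7, neither past the fold, and on days 3 and 5 both libraries were below 1 FPKM. With libraries scaled to a median ratio of 1 the day 7 difference was 1.04. *Inhbb* was present in all 17 libraries of the table. Without BMP4 it was at 14.4 FPKM on day 0, 38.9 on day 1, 20.4 on day 3, 8.58 on day 5 and 5.64 on day 7, and with BMP4 at 8.55, 8.56, 6.41 and 15.3. The difference with BMP4 was therefore -2.06 on day 1, -1.16 on day 3, -0.37 on day 5 and 1.30 on day 7.

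**Figure D1:**
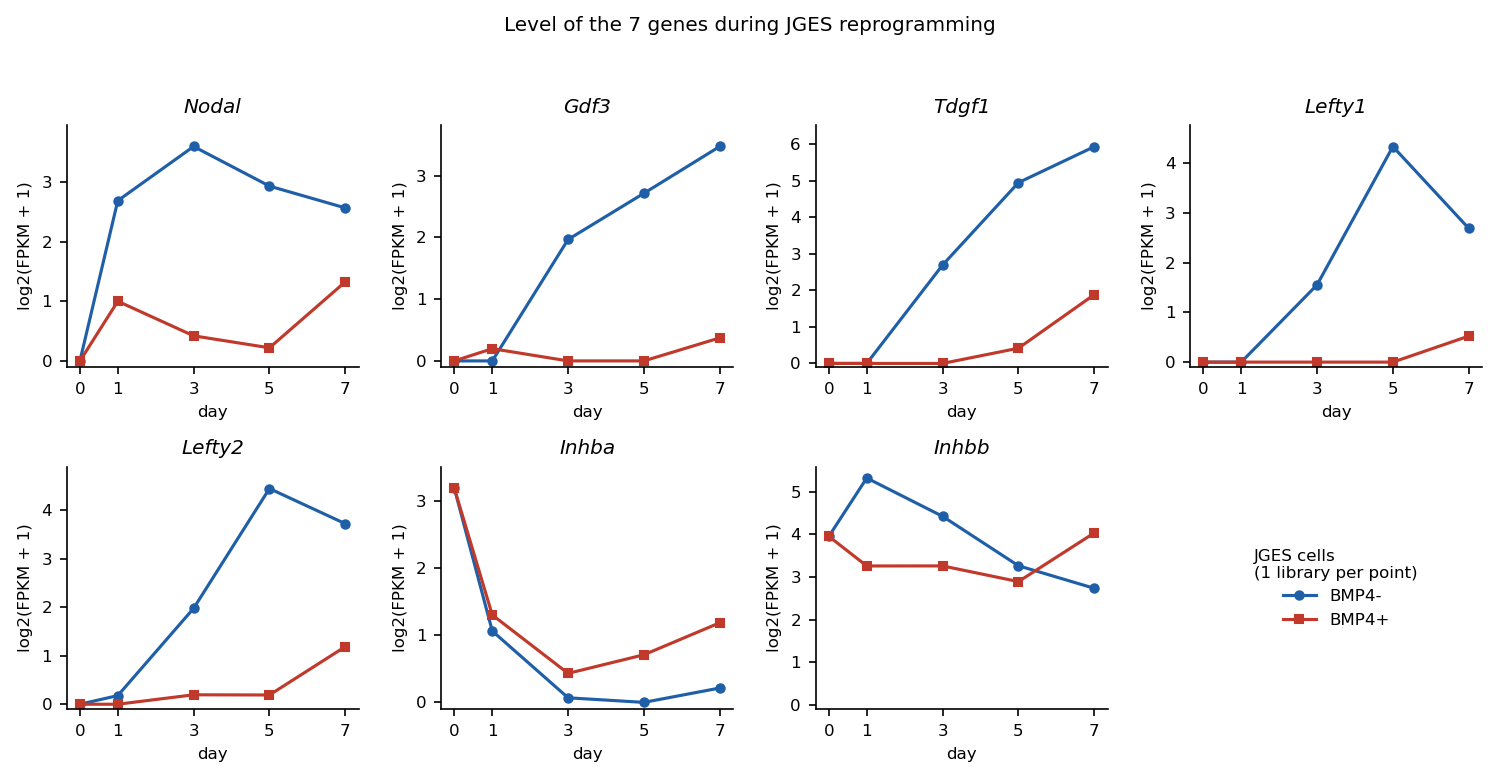
Level of each gene (log2(FPKM + 1), y axis) against day of JGES reprogramming (x axis), with BMP4- as blue circles and BMP4+ as red squares and 1 library per point. Both lines start from the same day 0 library. *Nodal*, *Gdf3*, *Tdgf1* and both *Lefty* genes stand higher in the blue line from day 3 on, and the *Inhbb* lines cross between days 5 and 7.

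Counted together, 0 members were higher and 6 lower with BMP4 on day 3, of 6 that reached 1 FPKM, beside 6.81% of all such genes higher and 8.99% lower. On day 5 the count was 0 higher and 5 lower beside 8.78% higher and 13.2% lower, and on day 7 it was 1 higher and 5 lower of 7 beside 10.3% higher and 13.8% lower. The median gene was 0.18 lower on day 5 and 0.14 lower on day 7 with BMP4. Relative to a median ratio of 1, the day 7 differences were -3.96 for *Tdgf1*, -3.07 for *Gdf3*, -2.46 for *Lefty2*, -2.13 for *Lefty1*, -1.16 for *Nodal* and 1.41 for *Inhbb*. Between day 0 and day 7 without BMP4, 5 members were higher and 2 lower (22.2% and 10.4% of all genes), and with BMP4 3 were higher (*Tdgf1*, *Nodal* and *Lefty2*, by 1.88, 1.33 and 1.19) and *Inhba* stood at -2.0 (17.5% and 9.47% of all genes). The median gene was itself 0.26 higher on day 7 than on day 0 without BMP4.

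Over the 4 days as a whole, no member passed an adjusted p of 0.05 for BMP4 (limma with the day as a block, Benjamini-Hochberg over 17047 genes, of which 0.346% were called higher and 0.223% lower). At an unadjusted p under 0.05 there were 5 members, namely the 5 Nodal-type genes, beside 3518 of all 17047 genes. *Nodal* was lower in 4 of 4 days, with a mean difference of -2.20 ± 0.35 (SE) and an adjusted p of 0.0531, and *Tdgf1* was lower in 3, at -2.82 ± 0.69 (adjusted p = 0.113). *Gdf3*, *Lefty1* and *Lefty2* had mean differences of -1.89, -2.02 and -2.19 with adjusted p between 0.130 and 0.159. *Inhba* (0.57 ± 0.26) and *Inhbb* (-0.57 ± 0.49) had adjusted p of 0.272 and 0.516.

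The marker genes of several cell types also differed over these days and with BMP4. The 6 pluripotency markers (*Nanog*, *Zfp42*, *Dppa5a*, *Sox2*, *Utf1*, *Fgf4*) summed to 5.85, 64.4, 146, 464 and 906 FPKM over days 0 to 7 without BMP4 and to 32.5, 23.2, 19.0 and 40.1 with it, and *Zfp42* and *Fgf4* were listed at 0 on day 1 in the BMP4- library. The 6 fibroblast markers (*Col1a1*, *Col1a2*, *Postn*, *Thy1*, *Dcn*, *Lum*) summed to 1209 on day 0, 54.9 on day 7 without BMP4 and 945 on day 7 with it. Placenta markers summed to 37.9 without and 112 with BMP4 on day 3 and to 72.1 and 240 on day 7, and primitive endoderm markers to 71.8 and 156 on day 7. *Nodal* was already near its day 7 level on day 1, when the pluripotency sum was 64.4 against 906. *Inhbb* was lower with BMP4 on days 1 and 3, when the fibroblast sum was higher with it (256 and 322 FPKM on day 1, 64.1 and 301 on day 3). The part of these cell types in the members' differences was not tested in the bulk samples.

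The other genes of the pathway were taken as a list of 27 (ligands, convertases, receptors, antagonists, transducers and targets). On day 1 with BMP4, 3 of the 23 measured were higher, namely *Cfc1*, the other EGF-CFC co-receptor, *Eomes*, a mesendoderm target, and *Smad7*, an inhibitory SMAD that BMP signals also induce. None was lower, beside 3.75% of all genes higher and 5.72% lower. On day 3, 3 of 24 were higher and 5 lower, beside 6.81% and 8.99% of all genes, with a list median of -0.30 beside -0.09. On day 5, 4 of 24 were higher and 6 lower, beside 8.78% and 13.2%, with a list median of -0.22 beside -0.18. On day 7, 9 of 25 were higher and 5 lower, beside 10.3% and 13.8% of all genes, and the median of the list was 0.16 beside -0.14 for all genes. *Cfc1* was at 0.367 FPKM without and 9.13 with BMP4, where *Tdgf1* was at 60.1 and 2.69. The ligand gene *Gdf11* (5.26 and 12.2), the convertase gene *Furin* (17.5 and 37.5), *Fst* (1.20 and 4.91), *Fstl3* (3.51 and 9.16), the antagonist gene *Cer1* (0 and 1.21), *Smad7* (7.46 and 23.8) and the feedback gene *Pmepa1* (2.62 and 7.99) were also among those higher. The receptor gene *Acvr2b* (9.78 and 2.77), *Foxh1*, the SMAD2 partner (8.62 and 1.25), and the primitive-streak genes *T* (9.17 and 0), *Gsc* (1.95 and 0.299) and *Mixl1* (1.08 and 0) were lower. *T* was listed at 0 with BMP4 on days 3, 5 and 7, and at 3.51, 10.4 and 9.17 without it. In the single cells of day 7 *T* was also lower with BMP4 (15.2 and 0.115 counts per 1e6 UMIs over all cells), whereas *Mixl1* was at 0.625 without and 1.07 with BMP4 and *Gsc* at 1.36 and 1.09.

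The factor sets at day 7 asked whether the members depend on Sall4 and on Oct4. Without BMP4, *Nodal*, *Gdf3*, *Tdgf1*, *Lefty1* and *Lefty2* were higher in JGES and in JGEO than in JGE. *Tdgf1* was listed at 0 in JGE and stood at 58.5 in JGES, 6.76 in JGEO and 2.76 in JGESO. *Nodal* stood at 0.120 in JGE, 4.79 in JGES, 3.44 in JGEO and 8.33 in JGESO. *Gdf3* stood at 0, 9.83, 13.4 and 6.40, *Lefty1* at 0.981, 5.33, 25.6 and 13.1, and *Lefty2* at 0, 11.8, 12.1 and 4.76, in the same order. JGEO was thus the highest set for *Gdf3* and *Lefty1*, JGES for *Tdgf1* and JGESO for *Nodal*, while *Lefty2* was alike in JGES and JGEO. *Inhbb* was highest in JGE, at 44.5, against 5.50 in JGES, 12.3 in JGEO and 6.93 in JGESO. *Inhba* was at 1.89, 0.156, 0.261 and 0.0283. JGES minus JGE and JGEO minus JGE each had 5 members higher and 2 lower, beside 20.1% and 16.9% of all genes in the first and 10.2% and 11.9% in the second. These comparisons share the JGE library.

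With Oct4 present, the difference with Sall4 was mixed. JGESO minus JGEO was 1.07 for *Nodal*, -1.18 for *Lefty2* and -1.04 for *Tdgf1*, beside 7.48% of genes higher and 20.7% lower, and the median gene was 0.26 lower. With the libraries scaled, *Nodal* was at 1.26, *Lefty2* at -1.01 and *Tdgf1*, at -0.89, was no longer past the fold. JGESO minus JGES was 1.16 for *Lefty1*, -1.16 for *Lefty2* and -3.98 for *Tdgf1*, beside 16.8% and 32.7% of all genes, with the median gene 0.21 lower. Markers of other cells also differed without BMP4. The primitive endoderm markers summed to 44.6 FPKM in JGEO, 70.0 in JGES and 355 in JGESO, and the placenta markers to 27.1, 70.3 and 221. Their part in these differences was not tested.

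The response to BMP4 at day 7 differed in sign between factor sets. In JGE cells, where the Nodal-type members were near 0, only *Inhbb* was past the fold, at 44.5 FPKM without and 11.2 with BMP4 (4.28% of all genes were higher and 4.78% lower). In JGEO cells only *Tdgf1* was past the fold, at 6.76 without and 17 with BMP4 (2.26% of genes were higher and 1.95% lower), and *Nodal* (3.44 and 5.27), *Lefty2* (12.1 and 22.1) and *Lefty1* (25.6 and 29.0) were not lower either, and *Gdf3* stood at 13.4 and 11.6. In JGESO cells *Nodal* (8.33 and 2.54) and *Lefty1* (13.1 and 3.31) were lower and *Inhbb* (6.93 and 15.6) higher, beside 3.52% and 5.29% of genes. *Tdgf1* there was at 2.76 and 5.16. Whether the BMP4 differences of the factor sets differ from each other was not tested, as each rests on 2 libraries.

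The pluripotency marker sum went from 14.1 to 8.71 FPKM with BMP4 in JGE, from 883 to 39.2 in JGES, from 333 to 494 in JGEO and from 468 to 284 in JGESO. The fibroblast marker sum went from 590 to 248, 53.5 to 924, 303 to 164 and 375 to 770. The 5 Nodal-type genes were lower with BMP4 in JGES, where the first sum was lower. In JGEO, where that sum was higher, 4 of the 5 had a difference above 0 (0.17 to 1.21) and *Gdf3* stood at -0.20, and in JGESO, where it was lower, 4 of the 5 had a difference below 0 (-1.71 to -0.21) and *Tdgf1* stood at 0.71. *Inhbb* had the direction of the second sum in JGE, JGES and JGESO, and in JGEO, where that sum was lower, it stood at -0.05. The part of either cell type in these values was not tested.

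**Figure D2:**
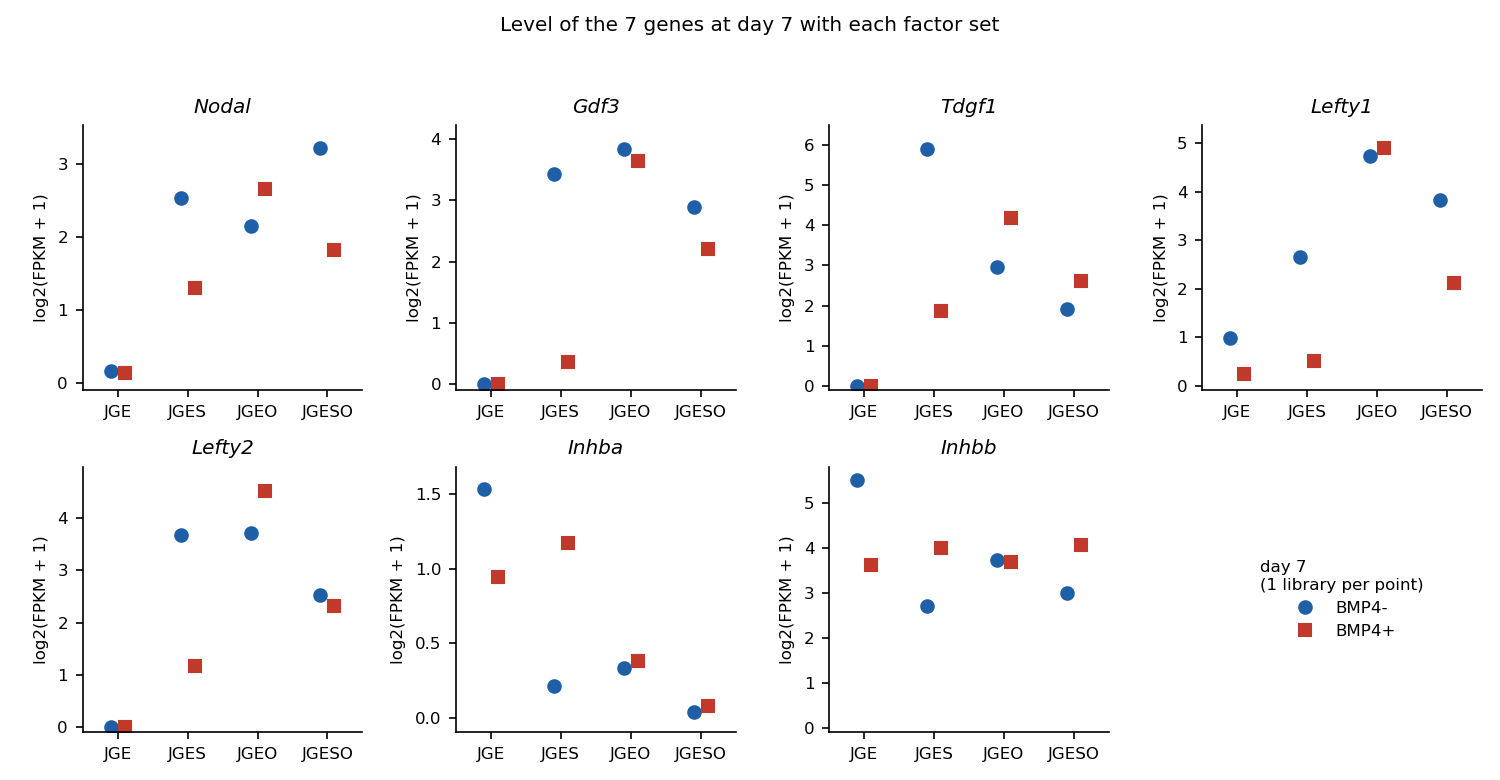
Level of each gene (log2(FPKM + 1), y axis) at day 7 for the 4 factor sets (x axis), with BMP4- as blue circles and BMP4+ as red squares and 1 library per point. *Tdgf1* stands at 58.5 FPKM without and 2.63 with BMP4 in JGES, and at 6.76 and 17 in JGEO.

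With SALL4 alone, only *Lefty1* and *Inhbb* of the 7 genes were well above 1 FPKM. *Nodal*, *Gdf3*, *Tdgf1* and *Lefty2* were below 1 FPKM in all 8 libraries. *Lefty1* stood at 6.57, 17.2, 25.2 and 20 FPKM on days 1, 5, 9 and 11 with SALL4-WT and at 5.91, 10.5, 21.1 and 14.7 with SALL4-delN12. Day 11 minus day 1 was 1.47 with SALL4-WT and 1.18 with SALL4-delN12, and SALL4-delN12 minus SALL4-WT was -0.13, -0.67, -0.24 and -0.43. The pluripotency marker sum was 0.478 to 6.32 FPKM in these libraries, so *Lefty1* was present here beside low *Lefty2* and low pluripotency markers. In JGES cells, which also hold high *Sall4*, *Lefty1* was listed at 0 on days 0 and 1.

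*Inhbb* was higher with SALL4-delN12 on each day. It stood at 14.5, 47.9, 98.9 and 71.1 FPKM with SALL4-WT and at 86.3, 101, 143 and 94.0 with SALL4-delN12. The difference was 2.49 on day 1 and 1.06 on day 5, the only member past the fold on either day (4.18% and 4.67% of all genes were higher, 5.63% and 5.19% lower), and 0.53 and 0.40 on days 9 and 11. Day 11 minus day 1 was 2.22 for *Inhbb* with SALL4-WT and 0.12 with SALL4-delN12 (11.5% and 10.4% of all genes were higher, 8.76% and 4.61% lower). *Inhba* stood at 1.02 and 1.22 FPKM on days 9 and 11 with SALL4-WT against 0.129 and 0.0631 with SALL4-delN12, and below 1 FPKM with both forms on days 1 and 5. It was past the fold on day 11 at -1.07 (6.55% of genes were higher and 6.58% lower). On day 9 it stood at -0.84, and no member was past the fold (6.09% of genes were higher and 5.75% lower).

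Over the 4 days as a whole, none of the 3 members that reached 1 FPKM passed an adjusted p of 0.05 between the forms (limma with the day as a block, over 14741 genes, of which 5.13% were called higher and 6.76% lower). All 3 had an unadjusted p under 0.05, as did 4490 of the 14741 genes. Without the block 1 of the 3 did. *Inhbb* was higher with SALL4-delN12 in 4 of 4 days, by a mean of 1.12 ± 0.35 (SE, adjusted p = 0.0917), and *Lefty1* was lower in 4 of 4, at -0.37 ± 0.12 (adjusted p = 0.0982). *Inhba* had a mean difference of -0.61 ± 0.20 (adjusted p = 0.109). Without day 1 *Inhbb* passed, at an adjusted p of 0.0471 by limma. Leaving out other days gave it an adjusted p of up to 0.249, and the fit without the block gave 0.258.

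Of the 27 other genes, the activin-binding *Fstl3* was lower with SALL4-delN12 on all 4 days, at 8.29, 11.8, 14.8 and 11.7 FPKM with SALL4-WT and 3.56, 3.07, 2.89 and 4.68 with SALL4-delN12. *Fst* was lower on days 1, 5 and 9, at 8.29, 10.8 and 12.4 against 2.96, 3.05 and 5.0. *Gdf11* was lower on days 1 and 11, and *Eomes* (0.216 and 2.46 on day 5, 0.467 and 2.61 on day 9) and *Pcsk6* (2.46 and 10.1 on day 5), a Nodal convertase gene, were higher. The list's median difference was between -0.10 and 0.07 on the 4 days. Markers of other cells also differed between the forms. The 6 placenta markers summed to 97.7 to 131 FPKM with SALL4-WT and 502 to 653 with SALL4-delN12, the 6 macrophage markers to 22.9 to 96.6 and 129 to 301, and the 6 primitive endoderm markers to 12.1 to 19.4 and 11.1 to 171. The fibroblast marker sum was 1002 FPKM with SALL4-WT and 2222 with SALL4-delN12 on day 1, the day of the largest *Inhbb* difference, and 1631 to 1885 and 1768 to 2030 on the later days. The mean log2 level of these markers was 5.21 and 5.59 on day 1 and ran the other way later, with 6.51 and 5.34 on day 5. Their part in the *Inhbb* and *Inhba* values was not tested.

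Over the 17 libraries of the time-course table, *Gdf3*, *Tdgf1* and *Lefty2* followed nearly the same course, with Pearson's r of log2(FPKM + 1) between 0.957 and 0.977 for the 3 pairs. *Lefty1* did not follow *Lefty2* (r = 0.157), since it was also present in the SALL4-alone libraries. The genes most like each member, among 12351 that reached 5 FPKM in a library, were *Vrtn*, *Dtx1* and *Kcna2* for *Nodal* (r = 0.965, 0.965 and 0.943), *Gm40663*, *Platr10* and *Utf1* for *Gdf3* (0.990, 0.986 and 0.985), *Cphx1*, *Nr6a1* and *Utf1* for *Tdgf1* (0.980, 0.980 and 0.979) and *Mep1b*, *Tdgf1* and *Gm6792* for *Lefty2* (0.981, 0.977 and 0.973). For *Lefty1* they were *Nek8*, *Snapc5* and *Pir* (0.908, 0.904 and 0.896), for *Inhba* *Cd248*, *Adamtsl1* and *Tln1* (0.895, 0.894 and 0.891) and for *Inhbb* *Sgsm3*, *Gpc1* and *B3gnt9* (0.95, 0.921 and 0.916). These are descriptions across libraries that share time courses and are not independent, so no p is given.

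In single cells of JGES day 7, the 5 Nodal-type genes were highest in the cells that the authors called pluripotent, which were found only without BMP4. The BMP4- sample held 8685 cells (1825 pluripotent, 6211 intermediate, 507 endothelial and 142 labelled ParE, read here as primitive endoderm-like cells, PrECLCs) and the BMP4+ sample 11335 (7125 intermediate, 2372 PrECLCs, 1453 endothelial and 385 placenta-like). The median depth was 12738 UMIs per cell without and 21205 with BMP4, and 2 barcodes occurred in both samples. The labels fitted their markers, with the pluripotency sum at 7100 counts per 1e6 UMIs (CPM) in pluripotent cells and 360.7 or less in the intermediate and endothelial cells, the endothelial sum at 567 and 870 CPM in endothelial cells and the placenta sum at 2738 in placenta-like cells. Of that placenta sum *Krt8* and *Krt18* made up 995 and 1641 CPM and *Elf5* 1.01. With BMP4 the placenta sum was also at 906 CPM in PrECLCs and 487 in intermediate cells, so it is not particular to placenta-like cells. Of the endothelial cells, 40.6% without and 75.5% with BMP4 had a UMI of at least 3 of the 6 endothelial markers, and their macrophage marker sum was 59.0 and 66.7 CPM. The PrECLCs of the BMP4- sample held 919 CPM of primitive endoderm and 873 of pluripotency markers. Levels below are UMIs summed over the cells of a type, with an exact 95% Poisson interval that covers counting error only. Clusters were made from all genes, so a gene's level in a cluster is a description.

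*Tdgf1* was at 98.7 CPM (95.2 to 102) in pluripotent cells, 3.38 (3.0 to 3.80) in intermediate cells and 2.97 (1.92 to 4.38) in endothelial cells of the same sample. *Gdf3* was at 44.2 (41.9 to 46.7), 2.63 (2.30 to 3.01) and 1.54 (0.822 to 2.64) in these types. *Nodal* was far lower, at 9.70 (8.62 to 10.9), 1.29 (1.05 to 1.55) and 0.356 (0.0735 to 1.04). *Lefty1* was at 77.5 (74.4 to 80.8), 20.4 (19.5 to 21.4) and 2.38 (1.45 to 3.67), and *Lefty2* at 42.8 (40.5 to 45.2), 12.2 (11.4 to 12.9) and 2.97 (1.92 to 4.38). The *Lefty* genes thus stayed at a higher share of their pluripotent level in the intermediate cells than *Tdgf1* and *Gdf3*. The shares were 26.3% (24.7 to 28.0) for *Lefty1* and 28.4% (26.1 to 30.9) for *Lefty2*, against 5.96% (5.14 to 6.88) for *Gdf3* and 3.42% (3.02 to 3.87) for *Tdgf1*. That of *Nodal* was 13.3% (10.5 to 16.6). Of the 6 pluripotency markers, 5 lay between 2.63% (*Zfp42*) and 5.73% (*Nanog*), and *Sox2* at 35.6%. In the PrECLCs of that sample the shares were 15.7% (9.93 to 23.6) for *Lefty1*, 8.65% (3.47 to 17.9) for *Lefty2* and 10.9% (1.31 to 39.7) for *Nodal*. There *Gdf3* stood at 5.98%, *Tdgf1* at 3.75% and the 6 markers between 2.50% (*Fgf4*) and 12.8% (*Dppa5a*). In endothelial cells, which should lack these genes, the shares were 3.01% for *Tdgf1*, 3.06% for *Lefty1*, 3.49% for *Gdf3*, 3.67% (0.753 to 10.8) for *Nodal* and 6.94% for *Lefty2*. The intervals of *Tdgf1* and *Gdf3* in intermediate cells overlap those in endothelial cells, so these levels are not told apart from that reference, whereas the CPM intervals of *Nodal* do not overlap. With cells grouped by a UMI of at least 3 of the 6 markers of a type, the endothelial reference was far higher. *Lefty1* was then at 24.1 CPM in endothelial, 12.8 in intermediate and 72.2 in pluripotent cells, *Tdgf1* at 12.3, 3.68 and 70.7 and *Nodal* at 2.18, 1.14 and 7.36. That grouping lets a cell belong to more than 1 type, and 44 of its 259 endothelial cells also met the pluripotent rule.

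**Figure D3:**
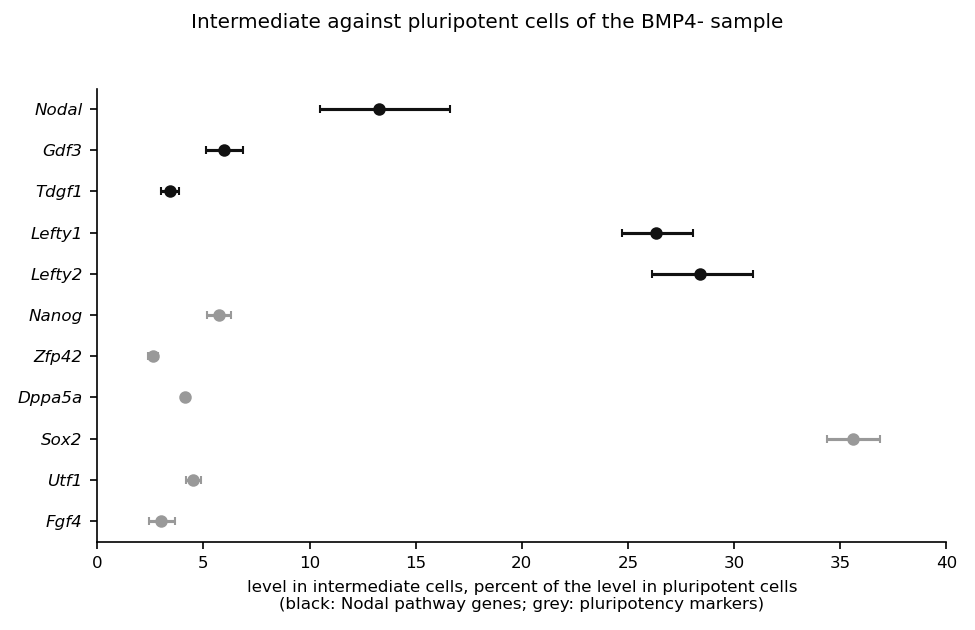
Level in the intermediate cells as a percent of that in the pluripotent cells of the BMP4- sample (x axis) for 5 Nodal-type genes (black) and 6 pluripotency markers (grey). Points are ratios of CPM and bars their exact 95% intervals for counting error. *Lefty1*, *Lefty2* and *Sox2* lie above 25%, *Tdgf1* and *Gdf3* below 7%.

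*Lefty1* was carried by few cells. In the pluripotent cells, 31.5% had a UMI of it and 10.8% had 3 or more, and the latter held 79.1% of its UMIs, up to 64 in a cell. In the intermediate cells of that sample 8.02% had a UMI, and 1.84% (114 cells) had 3 or more and held 74.6% of the UMIs. Of these 114 cells 50% (40.5 to 59.5, exact binomial) had a UMI of at least 3 of the 6 pluripotency markers, against 10.2% (9.42 to 11) of the other intermediate cells, and *Lefty2* was at 227 CPM in them against 7.12. Their median depth was 16424 UMIs against 11822. *Tdgf1* was spread more evenly, with a UMI in 60.1% of pluripotent cells and 3.94% of endothelial cells. Thinned to 4000 UMIs per cell, a UMI was found in 29.3% of pluripotent cells for *Tdgf1*, 16.5% for *Gdf3*, 14.0% for *Lefty1*, 13.0% for *Lefty2* and 4.05% for *Nodal*, and in 0.986%, 0.394%, 1.38%, 0.789% and 0.394% of endothelial cells. No cell had fewer than 4000 UMIs. In the thinned pluripotent cells *Lefty2* was found in 23.9% of 255 cells with *Lefty1* and 11.3% of 1570 without it, whereas *Gdf3* was found in 17.9% of 535 cells with *Tdgf1* and 16.0% of 1290 without it. Reads that fit both *Lefty* genes could add to the first pair.

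With BMP4, each Nodal-type gene was low in every type. Over all cells *Tdgf1* was at 26.3 CPM without and 0.420 with BMP4, *Gdf3* at 12.6 and 0.108, *Lefty2* at 18.8 and 0.156, *Lefty1* at 32.8 and 2.65 and *Nodal* at 3.25 and 0.201. These 5 members were lower by at least 1 on the log2 scale and *Inhba* and *Inhbb* higher, beside 12.6% of 18078 genes lower and 30.9% higher. The median gene was itself 0.51 higher on the log2 scale with BMP4, against which the 1.14 of *Inhbb* and the 2.26 of *Inhba* are to be read. The same 5 genes were lower in the cells that the authors called intermediate, by 89.0-fold (58.4 to 143) for *Lefty2*, 20.2-fold (12.9 to 33.3) for *Gdf3*, 8.64-fold (6.55 to 11.5) for *Tdgf1*, 6.25-fold (5.66 to 6.91) for *Lefty1* and 6.09-fold (4.11 to 9.25) for *Nodal* (10.8% of genes were lower and 31.3% higher, and the median gene was 0.48 higher). The pluripotency marker sum in these intermediate cells was 360.7 CPM without and 19.4 with BMP4, and 10.9% and 0.126% of them had a UMI of at least 3 of the 6 markers. The part of these cells in the folds was not tested. The folds of *Tdgf1* and *Gdf3* start from levels that were not told apart from the endothelial reference, and that of *Nodal* from a level not clearly told apart. With types taken from markers, intermediate cells are those of any label that miss the pluripotent, primitive endoderm, endothelial and placenta rules. The folds were then 99.2 for *Gdf3*, 91.7 for *Lefty2*, 28.5 for *Tdgf1*, 5.47 for *Nodal* and 4.32 for *Lefty1*. They have no interval, and *Gdf3*, *Lefty2* and *Tdgf1* stood at only 0.0241, 0.0966 and 0.129 CPM with BMP4. In endothelial cells 5 of the 6 members with at least 10 UMIs in 1 of the samples were lower (7.36% of genes were lower and 24.9% higher), and *Inhba*, with no UMI without BMP4 and 12 with it, could not be called. The 4 Nodal-type genes among the 5 are those whose endothelial level serves as the reference above, so no expression is read from them, and the pluripotency sum in endothelial cells was 306 CPM without and 3.92 with BMP4. The fifth, *Inhbb*, was at 1.54 and 0.572 CPM, but at 1.19 and 2.04 with types taken from markers. In PrECLCs 2 of 4 such members, *Tdgf1* and *Lefty1*, were lower (8.75% of genes were lower and 21.9% higher), and the pluripotency sum there was 873 CPM without and 22.8 with BMP4. *Inhba* and *Inhbb*, the other 2, could not be called, as they had no UMI in the 142 PrECLCs without BMP4, which allows 1.59 CPM at 3 UMIs, and 48 and 47 UMIs with it (0.781 and 0.765 CPM). The highest level of a Nodal-type gene with BMP4 was that of *Lefty1* in placenta-like cells, at 9.77 CPM (8.07 to 11.7), with a UMI in 17.1% of these cells, which had a median depth of 28906 UMIs, against 0.964% of endothelial cells with 21763. In these placenta-like cells 10 of 385 held 41.4% of the *Lefty1* UMIs. Thinned, the shares were 2.86% (1.44 to 5.05) and 0.0688% (0.00174 to 0.383). *Nodal* in placenta-like cells was at 1.43 CPM (0.834 to 2.29). With types taken from markers *Lefty1* and *Nodal* were at 4.13 and 0.327 CPM in the placenta group. As the authors called the types, no UMI of *Nodal* was found in 1453 endothelial cells, which allows 0.0859 CPM at 3 UMIs.

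*Inhba* and *Inhbb* were nearly absent from the pluripotent cells, at 0.270 (0.116 to 0.531) and 0.438 CPM (0.233 to 0.749), and highest in the intermediate cells of the BMP4+ sample, at 11.2 (10.7 to 11.7) and 9.92 (9.44 to 10.4). In the intermediate cells without BMP4 they were at 2.04 (1.75 to 2.37) and 3.86 (3.45 to 4.31), so the ratio with BMP4 was 5.47 (4.67 to 6.43) and 2.57 (2.28 to 2.91). In the other BMP4+ types neither exceeded 0.842 CPM. With types taken from markers the placenta group held 2071 cells and *Inhba* and *Inhbb* at 5.22 and 5.99 CPM, and the PrECLC group 1.90 and 2.06. *Inhba* was concentrated, with 146 of 7125 intermediate cells (2.05%) holding 73.4% of its UMIs and up to 137 in a cell. Of these cells 80.1% (72.7 to 86.3) had a UMI of at least 3 of the 6 fibroblast markers, against 36.2% (35.1 to 37.3) of the rest, at a median depth of 29511 UMIs against 19433. The cells with 3 or more UMIs of *Inhbb* (198, or 2.78%) had such markers in 75.8% (69.2 to 81.6). The fibroblast marker sum was 932 CPM in the intermediate cells with and 91.3 without BMP4. Its part in the *Inhba* and *Inhbb* ratios was not tested. *Lefty1* was at 8.94 CPM in the *Inhba*-rich cells and 3.10 in the rest. *Nodal* and *Gdf3* had no UMI in the *Inhba*-rich cells, but were at only 0.217 and 0.134 CPM in the rest, so no difference is read.

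**Figure D4:**
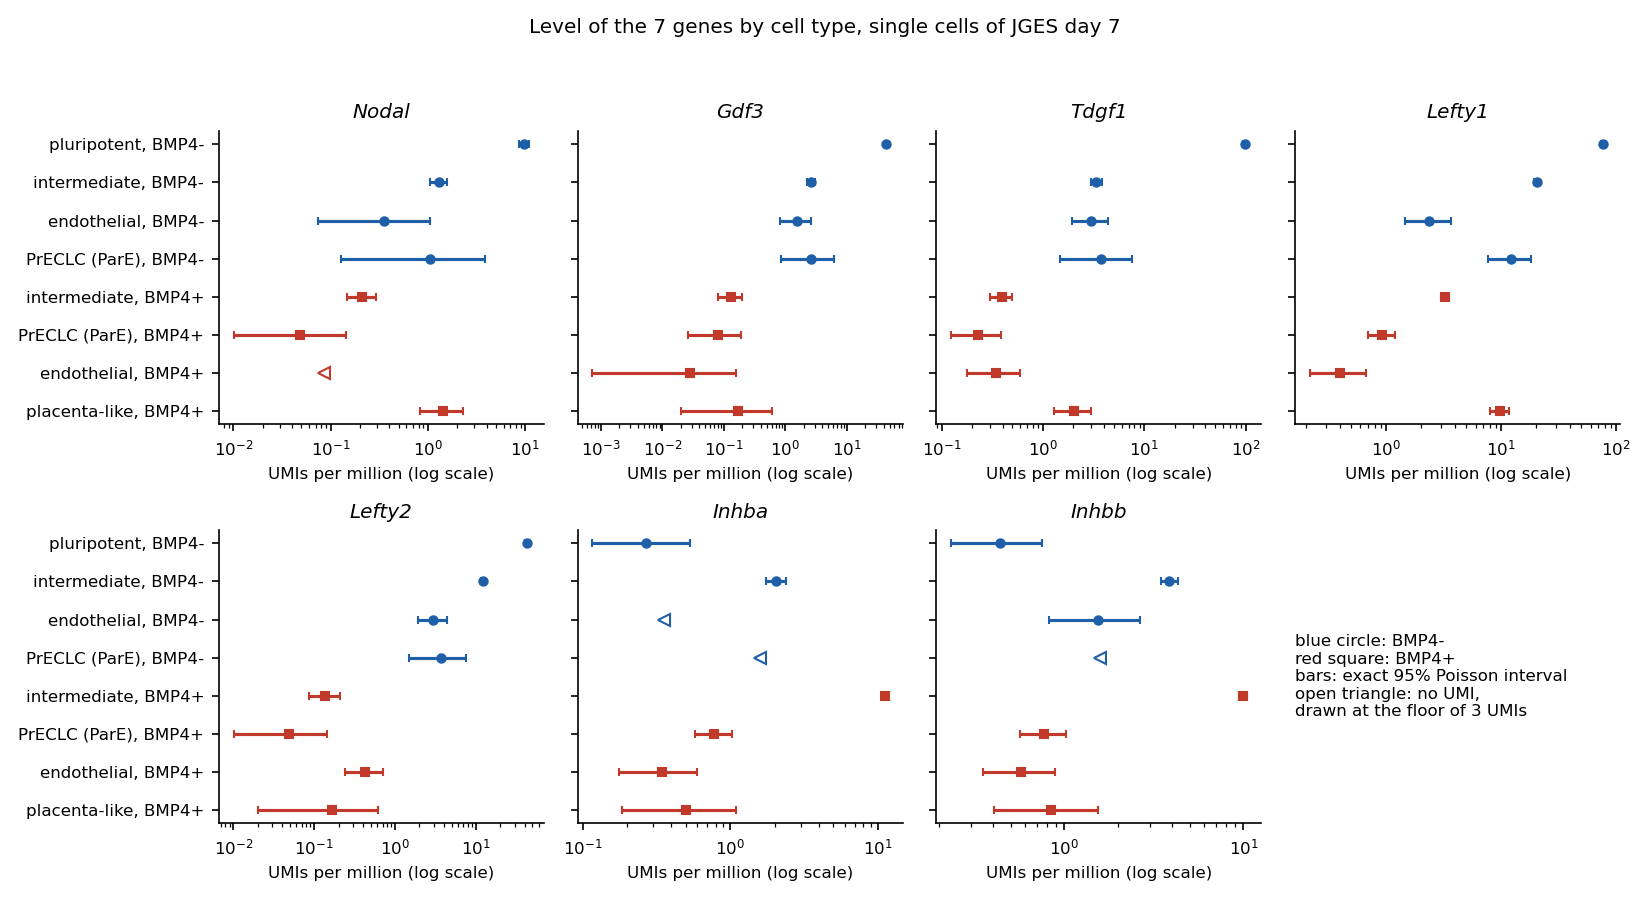
Level of each gene in CPM (x axis, log scale) by sample and cell type (y axis), with BMP4- in blue, BMP4+ in red and bars for exact 95% Poisson intervals. Open triangles mark the level that 3 UMIs would give where none was found. The 5 Nodal-type genes are highest in the pluripotent cells and *Inhba* and *Inhbb* in the BMP4+ intermediate cells.

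Chromatin was profiled in MEFs and in the SALL4-alone cells. A called peak within 2 kb of a start counts as a promoter peak, and scores are those of the deposited MACS lists, with higher scores for clearer peaks. Of the 63 pairs of a member and an ATAC-seq list, 40 had a promoter peak, beside 69.1% of all protein-coding genes in MEFs, 63.1%, 67.2%, 66.7% and 67.0% with SALL4-WT on days 1, 5, 9 and 11 and 61.0%, 62.9%, 64.3% and 64.9% with SALL4-delN12. *Inhba* and *Inhbb* had one in all 9 lists, *Lefty1* in 8, *Tdgf1* in 7, *Lefty2* in 3 and *Nodal* and *Gdf3* in 2. *Nodal* had it in MEFs, with a score of 81.4, and in SALL4-delN12 cells of day 11, with 52.7.

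The ATAC-seq promoter scores of the activin subunit genes differed between the SALL4 forms in opposite directions. At *Inhba* the highest promoter score was 755, 851, 572 and 620 on days 1, 5, 9 and 11 with SALL4-WT and 273, 453, 545 and 400 with SALL4-delN12, and 849 in MEFs. At *Inhbb* it was 60.3, 109, 155 and 115 with SALL4-WT and 214, 136, 280 and 141 with SALL4-delN12, and 87.9 in MEFs. SALL4-delN12 was lower at *Inhba* and higher at *Inhbb* on all 4 days. Scores grow with sequencing depth, and the lists held 83821 to 98422 peaks with SALL4-WT and 78517 to 94828 with SALL4-delN12. At *Lefty1* no order between the forms held over the 4 days, and its highest promoter peak lay within the gene in all 8 lists that had one.

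**Figure D5:**
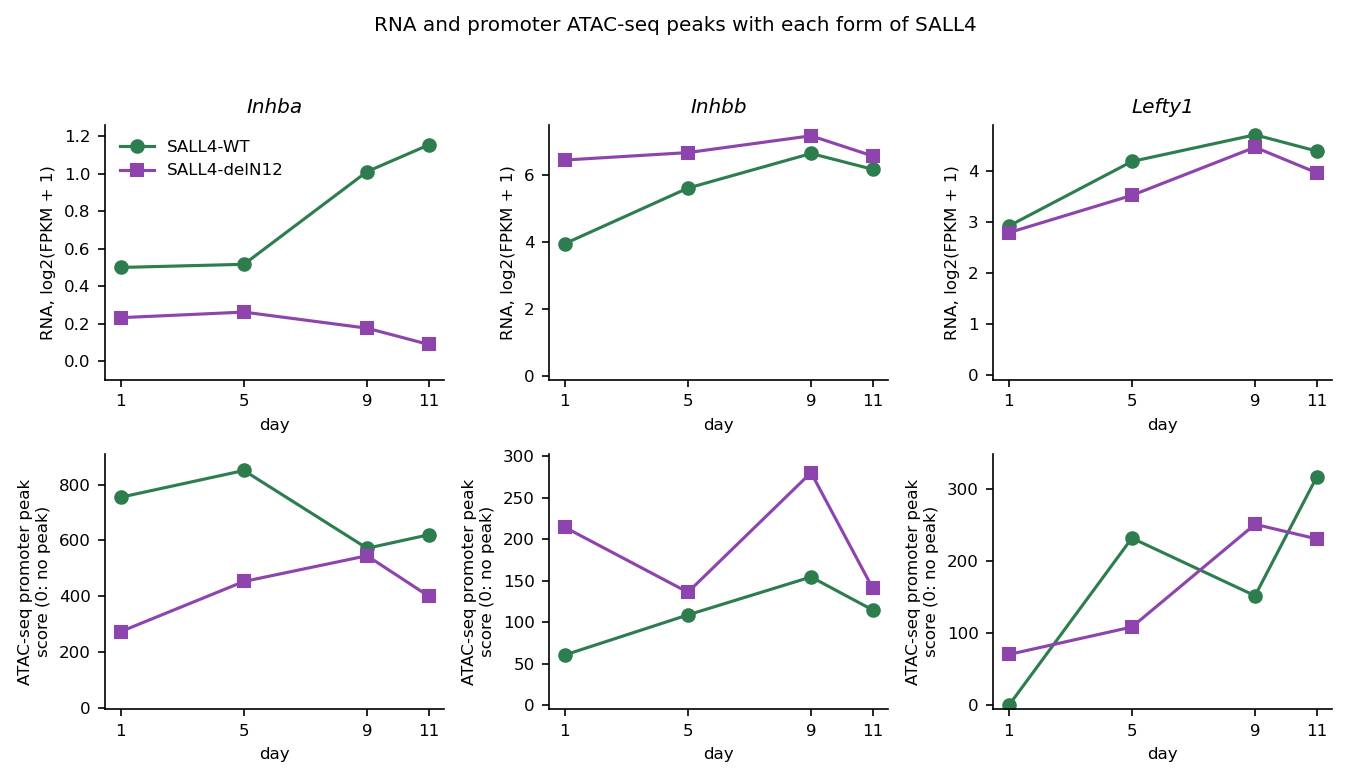
RNA level (log2(FPKM + 1), upper row) and highest ATAC-seq peak score within 2 kb of the start (lower row, 0 where no peak was called) against day for *Inhba*, *Inhbb* and *Lefty1*, with SALL4-WT in green, SALL4-delN12 in purple and 1 library per point. SALL4-delN12 lies below SALL4-WT at *Inhba* and above it at *Inhbb* in both rows, with *Inhba* RNA below 1 FPKM on days 1 and 5.

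CUT&Tag at day 6 gave H3K27ac, a mark of active elements, at the promoters of *Inhba* (122 with SALL4-WT and 220 with SALL4-delN12) and *Inhbb* (73.9 and 60.5) and of no other member, where 50% and 59.4% of all genes had it. The order of these scores between the forms was the reverse of that of the ATAC-seq scores at both genes and of the *Inhbb* RNA. *Inhba* RNA was below 1 FPKM with both forms on day 5, so its order is not read there. The H3K27ac lists held 19841 peaks with SALL4-WT and 45599 with SALL4-delN12, with median scores of 111 and 138. SALL4 itself had a promoter peak at *Inhba* and *Tdgf1* with both forms, at *Inhbb* with SALL4-WT (55.2) and at *Gdf3* with SALL4-delN12 (99.2), beside 55.3% and 42.0% of all genes. At the *Tdgf1* promoter the SALL4 score was 76.1 with SALL4-WT and 169 with SALL4-delN12, within the gene at 1.6 and 1.3 kb past the start, although *Tdgf1* was below 1 FPKM there.

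Away from the starts, the highest SALL4 score near a member was that past the 3' end of *Tdgf1*, at chr9:110937733-110938846 with 476 for SALL4-WT and chr9:110937776-110938729 with 403 for SALL4-delN12. H3K27ac was called there at 178 and 381. ATAC-seq peaks lay there in all 8 SALL4 libraries, the highest in each library scoring 160 to 308, and in none of MEFs. No protein-coding gene overlapped it, and the start of *Tdgf1*, 7869 bases away, was the nearest. Its open core in SALL4-delN12 cells of day 5, chr9:110937870-110938136, reads as follows on the plus strand, from GRCm38.p6, with the word CAGAC in capitals.
Tdgf1 downstream peak: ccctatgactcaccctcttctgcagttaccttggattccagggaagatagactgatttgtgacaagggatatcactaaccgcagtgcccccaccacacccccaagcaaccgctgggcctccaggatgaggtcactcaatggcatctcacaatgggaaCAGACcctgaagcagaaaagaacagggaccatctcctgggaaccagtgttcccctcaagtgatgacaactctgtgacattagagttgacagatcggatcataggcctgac
That word occurs once, and in 50.9% of the windows of 267 bases centred on the 89497 peaks of that list. SALL4 peaks also lay upstream of both *Lefty* genes. The peak before *Lefty1*, at chr1:180930474-180931810, scored 160 with SALL4-WT and 207 with SALL4-delN12, and that before *Lefty2*, at chr1:180887958-180889387, scored 120 and 122. H3K27ac was called at both with SALL4-delN12 (120 and 182) and at neither with SALL4-WT, whose H3K27ac list holds 19841 peaks against 45599. *Lefty1* was expressed in these cells with both forms and *Lefty2* with neither.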

How the data were processed

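RNA-seq values were deposited by the authors as FPKM in 2 tables (time courses and factor sets), made per the study's methods with Trim Galore 0.6.4, HISAT2 2.2.1 and StringTie 2.2.1 on mm10. The libraries listed 12030 to 14621 genes at 1 FPKM or more, but read numbers are not in these values, so depth is unknown. The JGES day 7 values of the factor-set table are those of the time-course table times 0.975 or 0.978 and are not independent. Single-cell values were deposited as UMI counts (STARsolo, GENCODE M21, cells filtered with Scanpy) with the authors' cell types. Of 30769 cells, 10749 whose labels match no sample used here were left out. How the authors treated doublets is not given in the sources used here, and no doublet caller was run. Peaks were deposited with a MACS 1.4.2 score after mapping with Bowtie2 2.4.5 and filtering with SAMtools 1.16.1, and the authors merged CUT&Tag replicates before calling peaks.

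Groups were compared by the difference of log2(FPKM + 1), within 1 table. Genes that reached 1 FPKM in one or both libraries were counted, and a difference of at least 1 in size was called. The 4 days of the JGES course with and without BMP4, and of the 2 SALL4 forms, were also compared with limma 3.58.1 (R 4.3.3) on log2(FPKM + 1) with the day as a block, over genes that reached 1 FPKM in a library. UMIs were summed per cell type as counts per 1e6 UMIs (CPM), with 95% intervals from the Poisson and binomial distributions. Cells were thinned to 4000 UMIs to compare shares, and genes with 10 UMIs in 1 of the samples entered counts. A count of 0 was given a floor of 3 UMIs. Promoters were 2 kb to each side of a GENCODE M21 start. Named genes were the 7 members, those of 27 other pathway genes past the fold (1 of them is not reported here) and the 3 genes most like each member. The members and lists, marker lists included, were chosen with earlier results of these data known. The scripts were tested on simulated data (Python 3.11.15, numpy 2.4.6, pandas 2.3.3, scipy 1.17.1, pysam 0.24.0, matplotlib 3.10.9). The alternatives tried were another pseudocount, fold and filter, scaled libraries, other cell groupings, a higher peak score and other windows.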

Additional observations from a re-analysis of the deposited data

Results flagged for a closer look

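*Inhbb* went in opposite directions with BMP4 at different days of JGES reprogramming. The difference was -2.06 on day 1 and -1.16 on day 3, and 1.30 on day 7. The difference between days was not tested, as each value rests on 1 library per condition.

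*Tdgf1* went in opposite directions with BMP4 in JGES (-4.04) and JGEO (1.21) cells at day 7. *Inhbb* did so in JGE (-1.89) against JGES (1.30) and JGESO (1.06) cells. Neither difference between factor sets was tested.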

How the results depend on the processing

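Of the values recomputed, 1 reversed its direction. The log2 ratio of *Inhbb* with BMP4 in endothelial cells, -1.43 as reported, was 0.78 with types taken from at least 3 of 6 markers. Of 81 alternative counts of members in bulk RNA-seq, 71 stayed within 1.5 times the main count, among them all 20 with scaled libraries. The 71 include 20 without the filter on low values, which could not move. A difference of at least 1 in size already needs 1 FPKM in a library. They also include 1 from the copy of the JGES day 7 libraries, which is not independent. The share of all genes past the fold moved by more than 1.5 times in all 20 comparisons without the filter, in all 20 with a fold of 1.5 and in 7 with a pseudocount of 0.1. With a fold of 1.5 on the log2 scale, the count of members with BMP4 was 0 in JGEO (1 as reported) and 1 in JGESO (3). It was 0 for JGESO minus JGEO (3) and 1 for JGESO minus JGES (3), and 0 for SALL4-delN12 minus SALL4-WT on day 5 (1) and day 11 (1). Over time it was 2 in JGES with BMP4 (4), 1 with SALL4-WT (2) and 0 with SALL4-delN12 (1). With a pseudocount of 0.1, SALL4-delN12 minus SALL4-WT on day 9 had 1 member (0). Among 287 alternative values of single members in bulk, 66 moved by more than 1.5 times, all of them with the pseudocount of 0.1. With only peaks that scored 100 or more, 26 of 63 ATAC-seq pairs (40), 2 of 14 H3K27ac pairs (4) and 3 of 14 SALL4 pairs (6) had a promoter peak. In single cells 5 of the 7 members were highest in pluripotent cells under each of the 4 alternatives, but with types taken from markers the level there left its exact 95% counting interval for all 7 (for the 5, from 77.5 to 72.2 CPM in *Lefty1* at the least and from 98.7 to 70.7 in *Tdgf1* at the most, and from 0.270 to 0.720 for *Inhba* and 0.438 to 1.51 for *Inhbb*), as did 6 of 14 ratios with BMP4 within a type beside the reversed one. Without the cells with the most UMIs *Gdf3* in endothelial cells gave no ratio, having no UMI with BMP4. With 1 library per group and unknown depth of the FPKM values, differences among genes below 1 FPKM cannot be read. The tests over 4 days were chosen after seeing the data. For BMP4 in JGES they called 59 genes higher and 38 lower with the day as a replicate block, and 38 and 18 without the block, when 1 member passed (*Nodal*, adjusted p = 0.0387 by limma). Leaving out 1 day in turn, 0 members passed, and 17 genes were higher and 7 lower without day 1 and 0 without day 3, 5 or 7, where 2034, 1630 and 1859 had an unadjusted p under 0.05. Between the SALL4 forms 756 genes were higher and 996 lower, and 300 and 398 without the block, when 0 members passed. Leaving out 1 day in turn, 0 to 1 members passed, with 74 to 1187 genes higher and 116 to 1371 lower.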

Other observations

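Other genes of the pathway differed between the cell types and samples of JGES day 7. Of 26 list genes in the single-cell table, 11 were higher and 2 lower by at least 1 on the log2 scale with BMP4 over all cells, beside 30.9% and 12.6% of all genes, and the list's median was 0.58 beside 0.51 for all genes. *Fst*, which binds activin, was at 217 CPM (213 to 221) in the PrECLCs with BMP4, 31.7 (24.2 to 40.9) in the PrECLCs without it and 13.5 (12.9 to 14.0) in the intermediate cells with BMP4. The feedback gene *Pmepa1* was at 98.3 CPM (95.9 to 101) in those PrECLCs against 48.7 (39.2 to 59.7) in the PrECLCs without BMP4, and at 74.1 (72.8 to 75.4) in the intermediate cells with BMP4 against 5.54 (5.05 to 6.07) without it.

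*Cfc1*, the co-receptor gene beside *Tdgf1*, was at 33.6 CPM (32.7 to 34.5) in the intermediate cells with and 1.74 (1.47 to 2.05) without BMP4, whereas in endothelial cells it was at 11.7 (10.6 to 12.9) with and 12.5 (10.2 to 15.1) without it. *Cer1* and the receptor gene *Acvr1c* were found mainly in the intermediate cells with BMP4, at 2.48 (2.25 to 2.74) and 1.71 (1.52 to 1.93) CPM, and at 0.0361 (0.00744 to 0.105) and 0.0481 (0.0131 to 0.123) without it. The primitive-streak gene *T* was highest in the intermediate cells without BMP4, at 20.2 CPM (19.2 to 21.2), against 3.61 (2.95 to 4.36) in the pluripotent cells of that sample and 0.0621 (0.0298 to 0.114) in the intermediate cells with BMP4. The cell types were defined from these cells, so the levels are descriptions with counting intervals.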
